A study of Mus musculus with 10 samples.

Results

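The genes described here are 10 members of the oxidative stress response run by the transcription factor NRF2, picked by symbol out of the 19935 genes that the arrays measured in mouse liver. They are Nfe2l2, Keap1, Gclc, Gclm, Slc7a11, Txnrd1, Srxn1, Nqo1, Hmox1 and Osgin1, and all 10 were measured, each by 1 probe set. The livers came from 5 NML-KO mice, which lack nucleomethylin, the nucleolar protein encoded by Rrp8, and from 5 WT mice. All were 12 weeks old and received no treatment, per the labels, and each was hybridised to 1 array. The labels do not state how Rrp8 was disrupted, nor the sex, strain, feeding state or hour of dissection. Litters and cages are not stated either. The p-values set differences against the spread between these livers, and whether the livers are independent is unknown.

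NRF2, the product of Nfe2l2, is held in the cytoplasm and sent for degradation by KEAP1, which carries reactive cysteines. When these are modified by oxidants or electrophiles, NRF2 escapes, pairs with a small MAF protein and binds antioxidant response elements near genes for glutathione synthesis, thioredoxin recycling, quinone reduction and haem breakdown. In liver this programme is known for protecting hepatocytes against reactive drug metabolites. Because its control acts mainly on NRF2 protein, the Nfe2l2 transcript is not a measure of NRF2 activity.

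The livers also differed in a way that the labels do not name. Dbp, which encodes a transcription factor driven directly by the circadian clock, lay between 9.68 and 10.23 (log2 intensity) in 5 livers, called Dbp-high here, and between 6.20 and 6.60 in the other 5, called Dbp-low, with a threshold of 8. NML-KO 1 to 3 with WT 1 and WT 2 are Dbp-high, and NML-KO 4, NML-KO 5 and WT 3 to 5 are Dbp-low. This split was read from the arrays and is no group of the study. It was part of how the genes were chosen for description, and differences between Dbp-high and Dbp-low livers are therefore given without a test.

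As a check of the labels, log2 Rrp8 was 6.65 to 7.19 in NML-KO livers and 7.65 to 7.90 in WT livers, with no overlap. Its mean was 1.84-fold lower in NML-KO livers, where the signal stayed above the median gene (6.22), and protein was not measured. The tissue label was checked against 9 hepatocyte markers (Alb, Ttr, Apoa1, Apob, Cps1, Serpina1c, Fgb, Tat and Hnf4a), whose mean log2 intensity was 13.67 to 13.76 in NML-KO livers and 13.62 to 13.76 in WT livers. Sinusoidal endothelial markers (8 of 8 measured) had means of 8.55 to 8.91 in NML-KO and 8.60 to 8.89 in WT livers, and stellate cell markers (8 of 8) 8.10 to 8.66 in NML-KO and 8.14 to 8.62 in WT livers. Lymphocyte markers (6 of 8) had means of 5.28 to 5.59 in NML-KO and 5.20 to 5.65 in WT livers. In bulk tissue, fewer cells of a type and less RNA per cell cannot be told apart. The test of genotype was limma on log2 intensities over all genes, with Benjamini-Hochberg adjustment. At an adjusted p of 0.05 it called 0 of the 10 members and 0 of all 19935 genes, or 0%. Rrp8, the targeted gene, had the smallest p of all genes, but its adjusted p of 0.109 did not pass either. An unadjusted p below 0.05 was found for 1 of the 10 members, Osgin1, against 539 of all genes, or 2.7% (1.66% lower and 1.05% higher in NML-KO).

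Osgin1 encodes an oxidative stress-induced growth inhibitor and is known as an NRF2 target. Its signal (probe set 10575873) varied more between livers than that of any other member. It had 8.44, 8.21, 9.64, 10.20 and 10.08 (log2 intensity) in NML-KO 1 to 5, against 9.63, 9.57, 11.21, 10.89 and 11.65 in WT 1 to 5. The lowest values of both genotypes were in Dbp-high livers and the highest in Dbp-low livers, and the genotypes overlapped. From the lowest liver, NML-KO 2, to the highest, WT 5, its signal spanned 10.8-fold, and 0.241% of all genes had a larger SD over the 10 livers.

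By genotype, Osgin1 averaged 9.31 ± 0.93 in NML-KO livers and 10.59 ± 0.94 in WT livers (SD, n = 5 each). The log2 difference was -1.28 (SE 0.52, 95% confidence interval -2.44 to -0.11), or 2.42-fold lower in NML-KO. In absolute size this was number 3 among the genotype differences of 19935 genes, but it did not pass over all genes (unadjusted p = 0.0344, adjusted p = 0.999 by limma). Within Dbp-high livers the difference was -0.84 and within Dbp-low livers -1.11. With the Dbp set as a term in limma it was -0.97 (SE 0.26, confidence interval -1.55 to -0.40), or 1.96-fold lower. The unadjusted p was then 0.00377, at rank 42 of all genes, and the adjusted p was 0.992. In that model 870 genes, 4.36%, had an unadjusted p below 0.05, 2.81% of genes with lower values in NML-KO, and Osgin1 was the only member among them. Osgin1 was chosen with earlier results of these data known. Its ranks and unadjusted p-values are therefore description and give no support to a difference. The genotype differences in the 2 Dbp sets differed by 0.27 (SE 0.53, Dbp-high minus Dbp-low), with an adjusted p of 0.961 for the interaction in limma.

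Within the Dbp-low livers both NML-KO values lay below all 3 WT values. Within the Dbp-high livers NML-KO 1 and NML-KO 2 lay below both WT values, while NML-KO 3, at 9.64, was level with WT 1 and WT 2. Between the sets, Osgin1 averaged 9.10 ± 0.71 in Dbp-high livers and 10.81 ± 0.66 in Dbp-low livers (SD, n = 5 each), a difference of -1.71, or 3.27-fold, with no overlap. The same difference was -1.38 within NML-KO livers and -1.65 within WT livers.

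**Figure D1:**
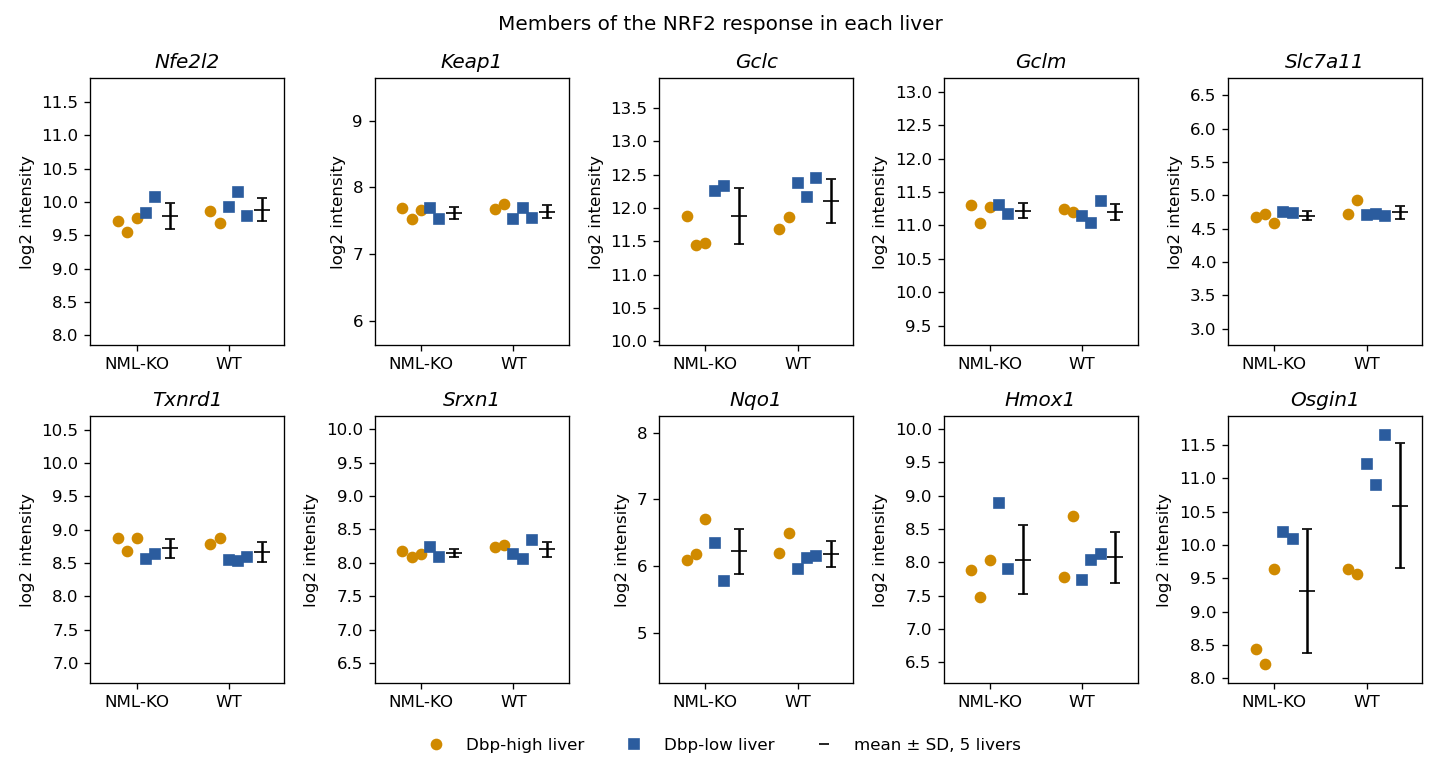
Log2 intensity of each member (vertical axis, the same span of 4 units in every panel) in each liver, NML-KO left of WT, with Dbp-high livers as circles and Dbp-low livers as squares, and the mean ± SD of 5 livers as a bar. Osgin1 spreads over 8.21 to 11.65, while Keap1, Gclm, Srxn1 and Slc7a11 stay within narrow bands.

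The promoter window of Osgin1 is shown because its signal varied most. RefSeq windows (build GRCm38.p6) reach 250 bases before to 50 after an annotated start, and 8 of the 10 members, all but Gclc and Hmox1, had at least 1, with 10 windows in all. The antioxidant response element core TGACNNNGC was searched on both strands, as was the AP-1 site TGACTCA, whose letters overlap the core when GC follows. Also searched were the E-box CACGTG bound by clock activators, and TTATGNAA, a loose form of the D-box. In it N can be any base, so a match need not be a site for DBP. In the Osgin1 window (chr8:119436897-119437196 on the plus strand) capitals mark an AP-1 site that begins at position -97 from the start. They also mark a match to the loose D-box pattern, with A as its N, that begins at -87:
Osgin1: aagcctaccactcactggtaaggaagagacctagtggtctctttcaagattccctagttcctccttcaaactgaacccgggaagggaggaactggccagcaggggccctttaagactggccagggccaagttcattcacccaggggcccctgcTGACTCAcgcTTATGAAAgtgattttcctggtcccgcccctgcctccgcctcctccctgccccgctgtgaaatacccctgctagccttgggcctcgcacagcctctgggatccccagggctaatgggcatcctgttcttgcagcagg
No TGACNNNGC core or E-box was found in these 300 bases. Forms of the core with G in place of the C in TGAC were not searched. The AP-1 site in this window is preceded by GC, so on the opposite strand it reads TGAGTCA followed by GC. Over all 32851 windows, 12.4% held the core, 5.2% the AP-1 site, 7.15% the E-box and 3.38% the loose D-box pattern. A match is a run of letters and not evidence of binding.

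Upstream in the pathway, Nfe2l2 had 9.72, 9.55, 9.76, 9.84 and 10.08 (log2 intensity) in NML-KO 1 to 5, against 9.87, 9.69, 9.92, 10.16 and 9.79 in WT 1 to 5. These values overlapped between the genotypes, with a difference of -0.09 (SE 0.11, confidence interval -0.34 to 0.15). The Dbp-high livers averaged 9.72 ± 0.12 and the Dbp-low livers 9.96 ± 0.16 (SD, n = 5 each), and these ranges overlapped too. Keap1, the NRF2 inhibitor, was among the steadier members, from 7.52 to 7.70 in NML-KO livers and from 7.52 to 7.75 in WT livers. Its genotype difference was -0.02 (SE 0.064, confidence interval -0.16 to 0.13) as deposited and 0.027 after quantile normalization.

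Glutathione synthesis starts with glutamate-cysteine ligase, whose catalytic subunit is encoded by Gclc and its modifier subunit by Gclm. Gclc had 11.87, 11.44, 11.48, 12.26 and 12.33 (log2 intensity) in NML-KO 1 to 5, against 11.69, 11.86, 12.38, 12.17 and 12.44 in WT 1 to 5. As with Osgin1, the 5 Dbp-high livers were all below the 5 Dbp-low livers, at 11.67 ± 0.20 and 12.32 ± 0.11 (SD, n = 5 each), a 1.57-fold difference. That difference was -0.70 in NML-KO livers and -0.56 in WT livers. Between genotypes Gclc differed by -0.23 (SE 0.21, confidence interval -0.70 to 0.24), or by -0.10 (SE 0.097) with the Dbp set as a term. The difference was -0.18 within Dbp-high and -0.034 within Dbp-low livers, and with 1 array left out it ran from -0.34 (without NML-KO 5) to -0.12 (without NML-KO 2), with -0.13 without NML-KO 3 and -0.15 without WT 5.

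Gclm, the other subunit, averaged 11.21 ± 0.10 in Dbp-high livers and 11.21 ± 0.13 in Dbp-low livers (SD, n = 5 each), a difference of 0.0071 that became 0.13 after quantile normalization. It ran from 11.04 to 11.31 in NML-KO livers and from 11.04 to 11.37 in WT livers, with a genotype difference of 0.02 (SE 0.075, confidence interval -0.15 to 0.19). Slc7a11 encodes the cystine importer that feeds glutathione synthesis. Its signal stayed between 4.58 and 4.75 in NML-KO livers and between 4.69 and 4.92 in WT livers, near the lowest intensities on these arrays. The files hold no detection call, so whether it stood above background is unknown. Its genotype difference was -0.06 (SE 0.059, confidence interval -0.19 to 0.08).

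Txnrd1, the cytosolic thioredoxin reductase, ran opposite to Gclc across the Dbp sets. It had 8.87, 8.67, 8.87, 8.55 and 8.63 (log2 intensity) in NML-KO 1 to 5, against 8.78, 8.87, 8.55, 8.53 and 8.60 in WT 1 to 5. All Dbp-high livers lay above all Dbp-low livers, at 8.81 ± 0.09 and 8.57 ± 0.04 (SD, n = 5 each), a 1.18-fold difference of 0.24 as deposited and 0.32 after quantile normalization. The gap between the nearest livers of the sets was small, with 8.67 in NML-KO 2 and 8.63 in NML-KO 5. Between genotypes the values were nearly level, with a difference of 0.05 (SE 0.09, confidence interval -0.15 to 0.25). Srxn1, or sulfiredoxin, which repairs over-oxidised peroxiredoxins, ran from 8.09 to 8.23 in NML-KO livers and from 8.05 to 8.34 in WT livers. It differed by -0.06 (SE 0.063, confidence interval -0.20 to 0.08) between genotypes and by 0.012 between Dbp sets.

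Windows of 4 of the 8 members with a window, Nfe2l2, Gclm, Srxn1 and Txnrd1, held 1 match each to the core TGACNNNGC. For Txnrd1 this was in 1 of its 3 windows. As for Osgin1, forms with G in place of the C in TGAC were not searched here. In Srxn1 the AP-1 site at -45, printed as TGAGTCA, is followed by GC, as is that of Osgin1 on its opposite strand. Of all 27025 genes with a window, 14% held the core. Capitals mark the core and, in Srxn1, also 2 AP-1 sites, all but the Nfe2l2 core read on the opposite strand. The stretches printed here were chosen because they carry the core. They lie at chr2:75704850-75704913 on the minus strand, chr3:122245378-122245476 on the plus strand, chr2:152105394-152105573 on the plus strand and chr10:82859069-82859167 on the plus strand:
Nfe2l2: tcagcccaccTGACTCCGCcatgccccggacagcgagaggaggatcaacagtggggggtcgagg
Gclm: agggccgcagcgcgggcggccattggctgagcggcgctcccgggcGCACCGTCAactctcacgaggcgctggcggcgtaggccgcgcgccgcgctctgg
Srxn1: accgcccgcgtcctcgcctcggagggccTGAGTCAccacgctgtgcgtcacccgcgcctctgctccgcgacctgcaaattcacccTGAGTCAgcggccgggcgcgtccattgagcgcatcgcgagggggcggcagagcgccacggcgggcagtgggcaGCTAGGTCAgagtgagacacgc
Txnrd1: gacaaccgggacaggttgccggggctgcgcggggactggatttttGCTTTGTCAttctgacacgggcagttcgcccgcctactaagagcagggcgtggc
The windows of Slc7a11, Nqo1 and Keap1 held none of the 4 motifs.

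Nqo1 encodes the quinone reductase often used as a readout of NRF2. It had 6.10, 6.18, 6.71, 6.34 and 5.78 (log2 intensity) in NML-KO 1 to 5, against 6.20, 6.50, 5.95, 6.13 and 6.15 in WT 1 to 5. The highest and the lowest value were both in NML-KO livers, so that the genotypes overlapped fully. The difference was 0.04 (SE 0.16, confidence interval -0.32 to 0.39) and -0.015 (SE 0.14) with the Dbp set as a term. Dbp-high livers averaged 6.34 ± 0.26 and Dbp-low livers 6.07 ± 0.21 (SD, n = 5 each), with overlap.

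Hmox1, or haem oxygenase, breaks down haem and is also under the repressor BACH1. It had 7.89, 7.49, 8.03, 8.89 and 7.90 (log2 intensity) in NML-KO 1 to 5, against 7.78, 8.70, 7.74, 8.04 and 8.13 in WT 1 to 5. NML-KO 4 and WT 2 stood highest, 1 liver of each genotype, and the genotype difference was -0.04 (SE 0.26, confidence interval -0.61 to 0.53). Leaving out NML-KO 4 made it -0.25, and leaving out WT 2 made it 0.12. The genotype difference was -0.44 within Dbp-high livers and 0.43 within Dbp-low livers, and the interaction had an adjusted p of 0.796 in limma.

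Macrophages that take up red cells express Hmox1, so 14 Kupffer cell and macrophage markers (all 14 measured) were set beside it. Their mean log2 intensity ran from 7.54 to 8.75 in NML-KO livers and from 7.64 to 8.53 in WT livers, and their summed intensity from 3493 to 8450 in NML-KO and from 3880 to 7084 in WT livers. NML-KO 2 was lowest and NML-KO 4 highest, as for Hmox1. WT 2, which had the second highest Hmox1, had a marker mean of 8.30, against 8.39 in WT 4 and 8.53 in WT 5, and a summed marker intensity of 6437, against 6356 in WT 4 and 7084 in WT 5. The part of these markers in the Hmox1 values was not tested. Between Dbp sets 12 of the 14 were lower in Dbp-high livers, against 8488 of all 19935 genes. For 4 of them (C1qb, C1qc, Folr2 and Vsig4) the sets did not overlap, against 7.12% of all genes lower without overlap. The means of the 14 markers overlapped, at 7.54 to 8.30 in Dbp-high and 8.08 to 8.75 in Dbp-low livers. The part of these marker differences in the Osgin1 and Gclc differences was not tested either. Markers of bile duct cells had means of 5.66 to 5.80 in Dbp-high and 5.82 to 6.05 in Dbp-low livers, through Sox9 (-1.18), while Krt7, Krt19, Epcam and Cftr differed by 0.05 to 0.07. The 12 neutrophil markers had means of 5.08 to 5.32 in NML-KO livers, highest in NML-KO 4, and of 5.08 to 5.17 in WT livers.

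**Figure D2:**
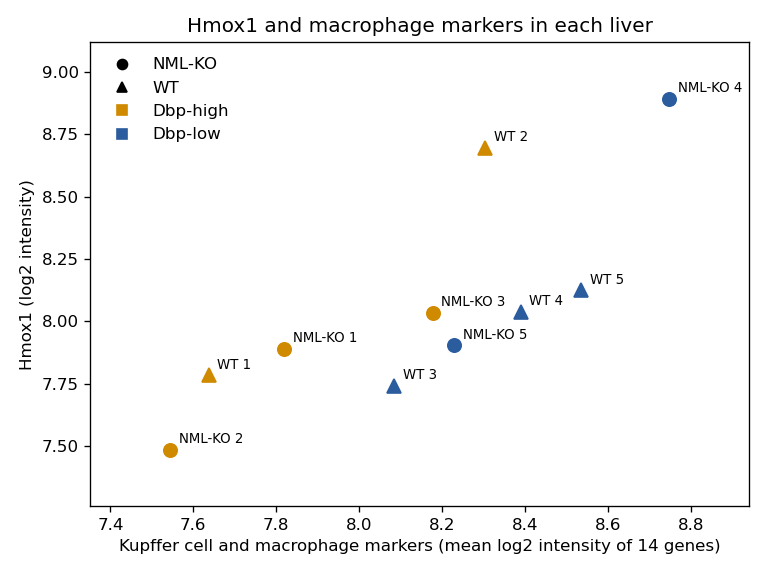
Hmox1 log2 intensity (vertical axis) against the mean log2 intensity of 14 Kupffer cell and macrophage markers (horizontal axis), 1 point per liver, with circles for NML-KO and triangles for WT and colour for the Dbp set. NML-KO 4 is highest on both axes and NML-KO 2 lowest on both, and WT 2 has a high Hmox1 of 8.70 at a marker mean of 8.30.

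Over the 10 members, 3 were above and 7 below 0 in NML-KO minus WT, with a median of -0.05, against 9285 above, 10650 below and a median of -0.0065 over all genes. That median of the members was -0.0055 after quantile normalization, -0.11 within Dbp-high and 0.017 within Dbp-low livers. Of single livers left out, WT 2 moved it to -0.00081, NML-KO 2 to -0.012, NML-KO 5 to -0.022, WT 3 to -0.073 and NML-KO 4 to -0.074. Values below 0 in both Dbp sets were found for 4 members (Gclc, Srxn1, Nqo1 and Osgin1), against 27.3% of all genes. The genotypes overlapped for all 10 members, and did not overlap for 0.406% of all genes. Confidence intervals of 9 members included 0, and those of Gclc and Hmox1 were wide, reaching down to -0.70 and -0.61. The interaction of genotype with Dbp set had an unadjusted p below 0.05 in 0 members, against 6.49% of all genes, and the smallest adjusted p among members was 0.796.

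**Figure D3:**
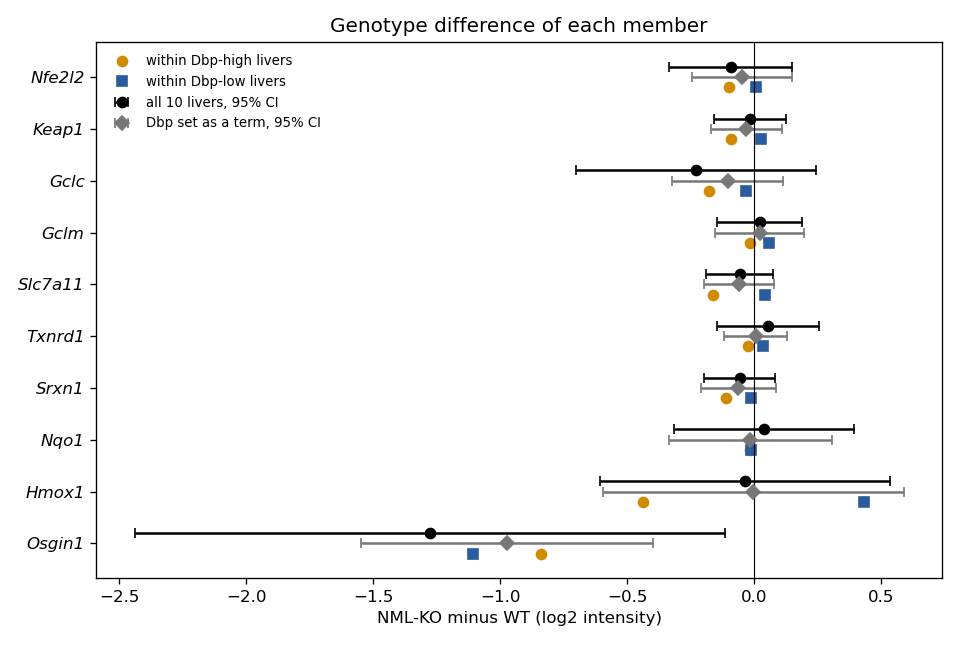
NML-KO minus WT difference in log2 intensity (horizontal axis) of each member (rows), over all 10 livers and with the Dbp set as a term (bars are 95% confidence intervals from limma), and as plain differences of means within Dbp-high and Dbp-low livers. Osgin1 lies at -1.28, and its interval ends at -0.11, while every other interval over all livers includes 0.

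Dbp sets did not overlap for 3 members, with Osgin1 and Gclc lower and Txnrd1 higher in Dbp-high livers. Of all genes, 12.2% did not overlap, 5.04% higher and 7.12% lower in Dbp-high livers. Of 17 clock genes measured (19 listed), 9 were higher and 4 lower in Dbp-high livers without overlap. The 9 include Dbp, whose own values define the sets. Others without overlap included Per3 (2.69), Ciart (2.54), Per1 (1.90), Nfil3 (-1.72) and Arntl, which encodes the activator BMAL1 (-2.42). For genotype, 0 of the 17 had an unadjusted p below 0.05 in limma. These shares are given as the background only, since the split belongs to the choice of the genes. The median Dbp-high minus Dbp-low difference was 0.0057 over the members and 0.023 over all genes. The sign was the same within NML-KO and within WT livers for Osgin1, Gclc, Nfe2l2, Txnrd1, Nqo1 and Keap1. It was opposite for Hmox1, at -0.59 in NML-KO and 0.27 in WT livers, and for Gclm, Srxn1 and Slc7a11, which all lay within 0.12 of 0.

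**Figure D4:**
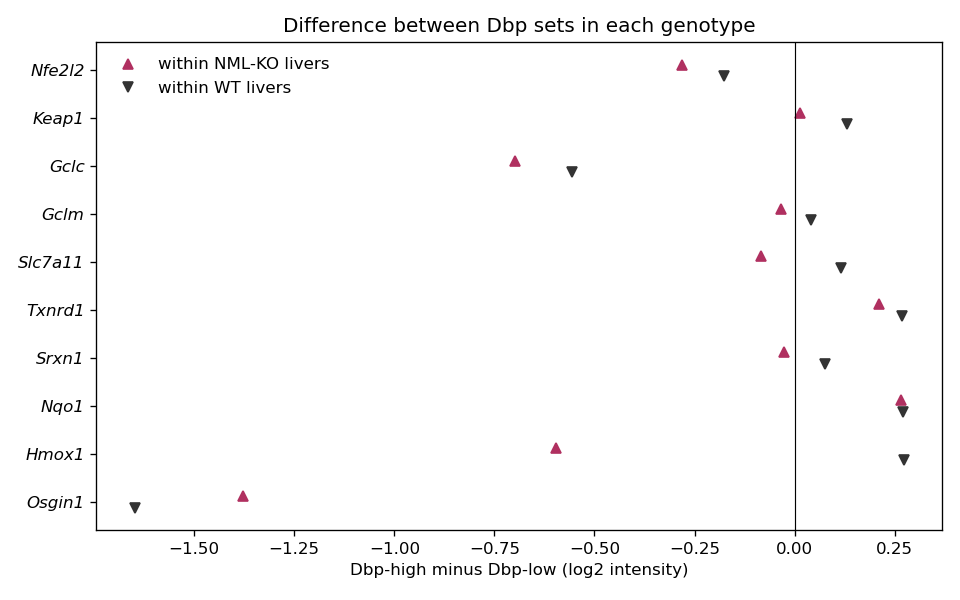
Dbp-high minus Dbp-low difference in log2 intensity (horizontal axis) of each member (rows), calculated within NML-KO livers (upward triangles) and within WT livers (downward triangles). Osgin1 and Gclc lie left of 0 in both genotypes, Txnrd1 and Nqo1 right of 0 in both, and Hmox1 on opposite sides.

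Beyond the members, 16 regulators of NRF2 were measured, of 16 listed: its MAF partners, the related factor NFE2L1, the repressors BACH1 and BACH2, the ligase CUL3 with RBX1, and others. None passed an adjusted or an unadjusted p of 0.05 for genotype in limma, and their median difference was 0.01. The smallest unadjusted p values belonged to Csnk2a1, a casein kinase subunit (0.14, SE 0.068), Bach2 (-0.29, SE 0.17) and Sqstm1, the autophagy receptor that binds KEAP1 (-0.15, SE 0.13). Bach1 was the regulator furthest apart between the Dbp sets. It had 8.65, 8.97, 9.24, 8.41 and 7.92 in NML-KO 1 to 5, against 8.96, 9.29, 8.005, 7.78 and 8.27 in WT 1 to 5. Every Dbp-high liver lay above every Dbp-low liver, by 0.95 on average. Dpp3 (-0.34) and Maff (0.27), which encode a peptidase that binds KEAP1 and a small MAF protein, came next and overlapped. The Dbp sets did not overlap for 2 of the 16, against 12.2% of all genes. These were Bach1 and Nfe2l1, which was lower in Dbp-high livers (-0.26). For the interaction of genotype with Dbp set, 1 of the 16, Csnk2a1, had an unadjusted p below 0.05, against 6.49% of all genes. Its genotype difference was 0.31 within Dbp-high and -0.03 within Dbp-low livers (adjusted p = 0.722 for the interaction by limma).

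Of 54 other NRF2 targets, 49 were measured by a probe set with a single gene. In NML-KO livers 17 were higher and 32 lower in value, with a median of -0.06 and 0 past the adjusted threshold in limma. Akr7a5, an aldo-keto reductase gene, had the only unadjusted p below 0.05 in the list over all livers (-0.16, SE 0.059, unadjusted p = 0.0225, adjusted p = 0.999). It averaged 10.26 ± 0.11 in NML-KO livers and 10.42 ± 0.04 in WT livers (SD, n = 5 each). Txn1, thioredoxin (-0.14, SE 0.073), and Ephx1, microsomal epoxide hydrolase (-0.21, SE 0.12), followed. With the Dbp set as a term, 3 of the 49 targets had an unadjusted p below 0.05, against 4.36% of all genes. They were Akr7a5 (-0.15), Abcc2 (-0.15) and Abcc3 (-0.24), and the adjusted p was 0.992 for each in limma. The interaction of genotype with Dbp set had an unadjusted p below 0.05 in 14 of the 49 targets, against 6.49% of all genes, and 0 passed after adjustment (smallest adjusted p = 0.717 by limma). In 13 of the 14 the genotype difference had opposite signs in the 2 sets. Since the 14 were picked for a difference between the sets, this count gives no separate support. The carbonyl reductase gene Cbr3 had -0.30 within Dbp-high and 0.15 within Dbp-low livers, and Cbr1 had -0.67 within Dbp-high and 0.30 within Dbp-low livers. Me1, the malic enzyme gene, had 0.69 within Dbp-high and -0.76 within Dbp-low livers, and Gstm2 had 0.43 within Dbp-high and -0.16 within Dbp-low livers. These counts were looked up after values were seen, and each set holds only 2 or 3 livers of a genotype. Between Dbp sets 4 targets were higher and 4 lower in Dbp-high livers without overlap, and 41 overlapped. Of all genes, 5.04% were higher and 7.12% lower without overlap. Lpin2, a phosphatidate phosphatase gene, differed by 1.15, Pgd, of the pentose phosphate pathway, by -0.81 and the glutathione transferase gene Gstm2 by -0.71.

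Antioxidant enzymes outside these lists, 25 measured of 27, had 11 higher and 14 lower values in NML-KO livers, a median of -0.05 and 0 past an adjusted or unadjusted p of 0.05 in limma. Sesn2 (-0.20, SE 0.10), Prdx4 (-0.24, SE 0.14) and Gpx4 (-0.20, SE 0.13) had the smallest unadjusted p. With the Dbp set as a term 1 had an unadjusted p below 0.05, Txnrd2 (-0.17, adjusted p = 0.992 by limma), against 4.36% of all genes. The interaction had an unadjusted p below 0.05 in 5 of the 25 (Glrx3, Sesn2, Gpx4, Mt2 and Prdx3), against 6.49% of all genes. The smallest adjusted p for it in the list was 0.722 in limma. Mt2 had a genotype difference of -1.85 within Dbp-high and 3.35 within Dbp-low livers. Between Dbp sets 2 were higher and 4 lower in Dbp-high livers without overlap, against 5.04% higher and 7.12% lower of all genes. Glrx, glutaredoxin (-1.02), and Gpx3, the secreted glutathione peroxidase (-0.79), were lower without overlap, and Mt2, a metallothionein, differed by 0.65 with overlap. Mt2 had 9.20, 7.46, 8.21, 12.95 and 7.82 in NML-KO 1 to 5, against 8.62, 11.66, 6.71, 6.70 and 7.71 in WT 1 to 5. Its highest livers, NML-KO 4 and WT 2, were also the highest for Hmox1.

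Osgin1 was last set beside all non-member genes by the root mean square distance between log2 values centred on each gene's mean over the 10 livers. Its own values lay 1.05 from their mean by this measure. The nearest genes were Rnf125, a ubiquitin ligase gene (0.44), Sqle, squalene epoxidase of cholesterol synthesis (0.44), Nr0b2, the nuclear receptor SHP (0.46), Hjv, the hepcidin regulator hemojuvelin (0.51), and Cda, cytidine deaminase (0.52). Among the members Gclc was nearest (0.80) and Txnrd1 furthest (1.15). Sqle had 6.81, 6.88, 7.63, 7.86 and 8.56 in NML-KO 1 to 5, against 7.82, 7.08, 8.80, 9.67 and 9.35 in WT 1 to 5. As for Osgin1, the values were low in NML-KO 1 and NML-KO 2 and highest in WT 3 to 5. The NML-KO minus WT difference was -0.50 to -0.99 for these 5 genes, and none passed, with an adjusted p of 0.999 for each in limma. Closeness to Osgin1 includes the differences between Dbp sets, at -1.18 to -1.74 for these genes, and being picked for closeness they give no independent support to any difference of Osgin1.

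**Figure D5:**
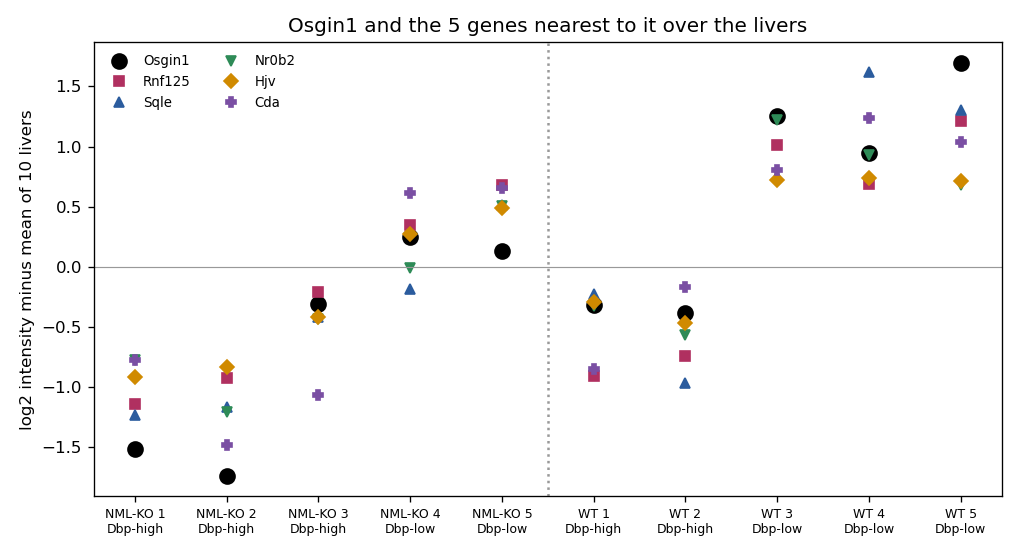
Log2 intensity minus the mean of 10 livers (vertical axis) for Osgin1 (large black circles) and the 5 genes nearest to it, in each liver (horizontal axis, NML-KO left of the dotted line, WT right). All lie below 0 in NML-KO 1 to 3 and in WT 1 and WT 2, and above 0 in WT 3 to 5.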

How the data were processed

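RNA of whole mouse liver was biotin-labelled with an Affymetrix whole-transcript kit, per the labels' protocols. The authors deposited a linear intensity for each of 28815 probe sets on 10 arrays, from 18.4 to 29834, with array medians of 62.5 to 66.7. The submitters' processing notes name the genome build mm8. No source used here gives the background correction, normalization or summarization, and a remaining background would shrink differences of dim genes.

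Values were taken to log2. Probe sets with 1 platform symbol (21780, of which 21689 were updated by gene ID in a RefSeq table of assembly GRCm38.p6) were kept, those with several (1605) or none (5430) left out, and the probe set with the highest mean used, giving 19935 genes. NML-KO and WT, named in the titles, were compared with limma 3.58.1 (lmFit, eBayes) in R 4.3.3, adjusted over all genes, also with the Dbp set as a term or interaction. The fit of genotype alone was tested on simulated data, and the fits with the Dbp set were not. The number of arrays limits the precision.

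Members and lists were chosen with earlier results of these data known. Named genes were the members, Rrp8, Dbp, Arntl, from each list without cell type markers the 3 genes of smallest p and the 3 of largest Dbp-set difference, and 5 neighbours of Osgin1. The marker genes C1qb, C1qc, Folr2, Vsig4, Sox9, Krt7, Krt19, Epcam and Cftr, and the genes Nfe2l1, Abcc2, Abcc3, Cbr1, Cbr3, Me1, Txnrd2, Glrx3 and Prdx3, were named after their values were seen. Sequences are RefSeq's.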

Additional observations from a re-analysis of the deposited data

Results flagged for a closer look

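Slc7a11 in WT 2 had a log2 intensity of 4.92, apart from the other WT livers, the next of which was at 4.72. Its gap to that liver took up more of the group's range than Dixon's 95% critical value of 0.71 allows. Of 20 groups tested, 10 members in 2 genotypes, this was the only 1 so marked, and chance marks about 1 in 20.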

How the results depend on the processing

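No member passed an adjusted p of 0.05 in limma under any alternative run: quantile normalization, median centring, probe sets averaged per gene, 16 added before log2, dim genes left out (which dropped Nqo1 and Slc7a11), the Dbp set in the model, each Dbp set alone, a trended and robust prior, the replicate block, and each array left out. Osgin1 kept its direction in all of them, at -1.53 to -0.84, with -1.53 to -1.0 when 1 array was left out and an adjusted p of at least 0.507. With the Dbp set as a term and 1 array left out, chosen after seeing the data, it was -1.18 to -0.86, with an adjusted p of at least 0.161. The replicate numbers are shared only as numbers: deviations of same-numbered livers correlated at -0.42 to 0.54, and 2 of 10 livers correlated best with their own number. With the replicate block 0 genes passed and 834 had an unadjusted p below 0.05, and Osgin1 had an adjusted p of 0.507. Over all genes the count passing was 0 to 1 with 1 array left out. The 1 was Rrp8 without NML-KO 4 (adjusted p = 0.0171), where 994 genes had an unadjusted p below 0.05, against 358 without NML-KO 1.

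Genotype differences near 0 turned sign. They were 0.027 for Keap1 and 0.0027 for Hmox1 after quantile normalization, -0.015 for Nqo1 with the Dbp set as a term, -0.017 for Nqo1, -0.017 for Gclm and -0.023 for Txnrd1 within Dbp-high livers, and 0.0059 for Nfe2l2, 0.028 for Keap1, -0.013 for Nqo1, 0.041 for Slc7a11 and 0.43 for Hmox1 within Dbp-low livers. With 1 array left out they ran from -0.045 to 0.011 for Keap1, -0.084 to 0.15 for Nqo1, -0.017 to 0.066 for Gclm and -0.25 to 0.12 for Hmox1. The cause was not tested. The members' median Dbp-high minus Dbp-low difference was 0.096 within WT livers, and Osgin1's was -1.89 to -1.49 with 1 array left out.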
